A study of Mus musculus with 2 samples.

Results

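The 10 genes described here encode the interleukin-6 receptor, its signalling kinases and STAT factors, and the SOCS proteins that shut the signal off. They were chosen by name, Il6ra, Il6st, Jak1, Jak2, Stat3, Stat5b, Socs1, Socs2, Socs3 and Cish, and every non-control probe carrying one of these gene names on an Agilent array was taken. That gave 14 probes for the 10 genes, of 39424 probes kept and 15421 genes measured in all. All 14 probes were well above background on both arrays. The cells were mouse primary hepatocytes, the parenchymal cells of the liver, cultured in medium with 10% serum. One group received 50 pmol of control siRNA and the other 50 pmol of G0s2 siRNA, both by lipid transfection in 24-well plates. The siRNA target, G0s2, encodes a protein that holds the main triglyceride lipase of lipid droplets in check. RNA was examined 24 hours after transfection, with 1 array per group. The strain, age and number of the mice are not given in the sources used here.

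As background, interleukin-6 binds its receptor, the product of Il6ra, which then joins the shared signalling chain gp130, the product of Il6st. The JAK kinases held by gp130 phosphorylate STAT3, which enters the nucleus and in hepatocytes switches on the acute phase plasma proteins. STAT3 also induces Socs3, whose product blocks the receptor and closes the loop. Growth hormone uses the same logic in liver, with JAK2 and STAT5b as its transmitters and Socs2 and Cish as feedback genes, while Socs1 is the feedback gene best known from interferon signalling.

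A level below is the log2 signal of a probe minus the 75th percentile of its array, and a difference is the level with G0s2 siRNA minus the level with control siRNA. That percentile stood at a signal of 418 for control siRNA and 728 for G0s2 siRNA. With 1 array in each group the differences compare these arrays and not the treatments, and they carry no p-value. The error given is the scanner program's own signal error carried to the log2 difference. It leaves out variation between cultures and RNA extracts. G0s2 itself was 6.50-fold lower on the G0s2 siRNA array. All 8 hepatocyte markers were measured, with albumin (Alb) at a level of 8.48 with control siRNA and 8.78 with G0s2 siRNA. Of these markers Cps1, at 2.96, and Hnf4a, at 1.04, were at least 2-fold higher.

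Of the 10 genes, 1 was at least 2-fold higher with G0s2 siRNA (Il6st) and 2 were at least 2-fold lower (Socs1 and Socs2). Among all genes measured, 4.81% were higher by this rule, 5.45% were lower, and 10.3% passed in either direction. The other 7 genes lay within 2-fold, and the median difference over the 10 was 0.11, against -0.03 over all genes. Before any scaling, 8 of the 10 genes had a higher signal on the G0s2 siRNA array and 2, Socs1 and Socs2, a lower one. Of all genes measured on both arrays, 91.8% had a higher unscaled signal there. Socs1 and Socs2 thus stood with the minority of genes whose signal was lower before scaling. Scaling subtracts the same value from every gene of an array, so this restates their scaled differences and is no further support. Under centring on the spike-in controls, which moves the median of all genes to 1.48, Il6st differed by 3.06, Socs1 by -0.68 and Socs2 by -0.31.

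**Figure D1:**
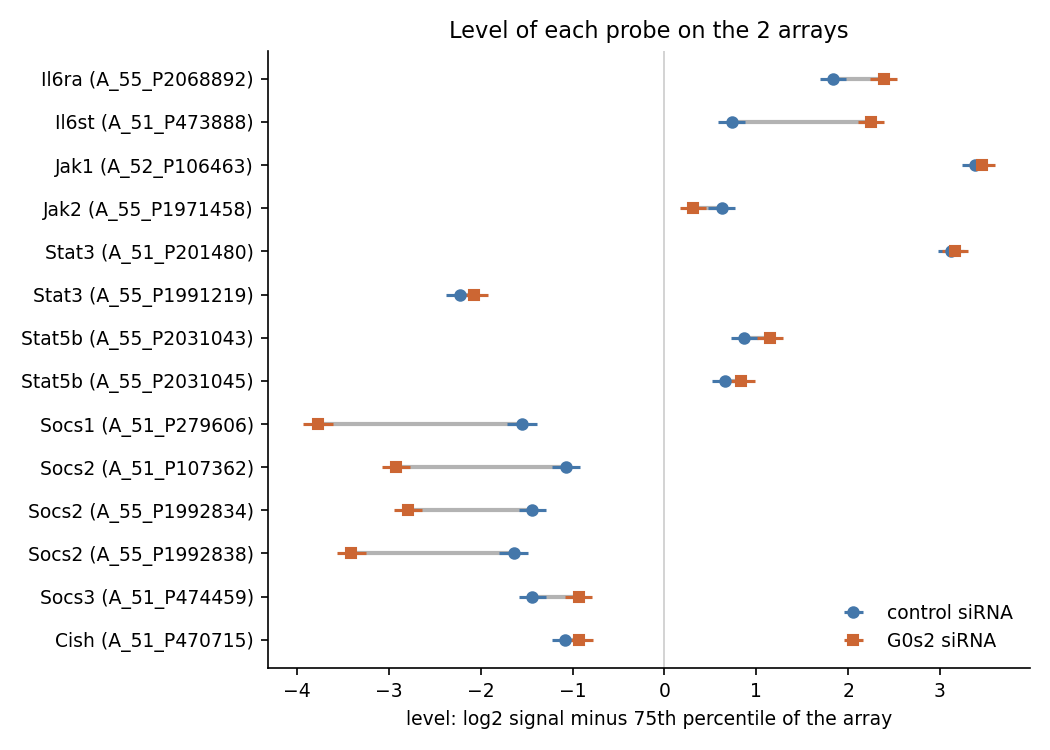
Level of each of the 14 probes (log2 signal minus the 75th percentile of its array, horizontal axis) on the control siRNA array (circles) and the G0s2 siRNA array (squares). Grey lines join the arrays, and bars are the scanner error of the log2 difference divided by the square root of 2. The Il6st square lies to the right of its circle by 1.52, and the squares of the Socs1 probe and of all 3 Socs2 probes lie to the left of theirs.

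The receptor genes were both higher with G0s2 siRNA, by unequal amounts. Il6st, which encodes the signalling chain gp130 shared by the whole interleukin-6 family, had a signal of 695 with control siRNA and 3460 with G0s2 siRNA. The level went from 0.73 to 2.25, a difference of 1.52 ± 0.20, or 2.86-fold. That difference lay at percentile 98.7 of all genes measured. Il6ra, which encodes the ligand-binding chain, had a signal of 1492 and then 3804. The level went from 1.83 to 2.39, a difference of 0.55 ± 0.20, or 1.47-fold. This is over 2 scanner errors but within the 2-fold rule, at percentile 86.6 of all genes measured. In RNA from a whole culture, a change in the number of cells of a type and a change in RNA per cell cannot be told apart.

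Each receptor gene rests on 1 probe with 1 spot per array. The Il6st probe lies at chr13:113296586-113296645 of mm9 on the plus strand, at position 4969 of its transcript, and the Il6ra probe at chr3:89674054-89674113 on the minus strand, at position 2475. Their place within exons was not analysed here. Across 14118 genes, the difference and the probe's position in the transcript had a Spearman rho of 0.146, a description over genes that share the same 2 arrays. In the tenth of genes with the highest positions, which holds Il6st, the median difference was 0.07 and 7.51% of genes were at least 2-fold higher. With that median subtracted, an alternative chosen after the data were seen, Il6st differed by 1.44.

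The kinase and STAT genes had nearly the same scaled level on both arrays. Jak1, which encodes the kinase that carries most of the gp130 signal, had a level of 3.38 with control siRNA and 3.46 with G0s2 siRNA, a difference of 0.07 ± 0.20. Jak2, the kinase of the growth hormone receptor, had a level of 0.62 and then 0.31, a difference of -0.31 ± 0.20. Under spike-in centring both Jak1, at 1.61, and Jak2, at 1.23, were positive, as was the median of all genes. Stat5b, the growth hormone transmitter in liver, was read by 2 probes, which differed by 0.28 ± 0.20 and 0.17 ± 0.20. None of these differences reached 2 scanner errors.

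Stat3, the factor that carries the interleukin-6 signal to the nucleus, was read by 1 probe printed 10 times on each array and a further probe printed once. On each array 2 of the 10 spots were marked as outliers and left out. The 8 spots kept ranged from 3548 to 3720 in signal on the control array, with a median of 3617. On the G0s2 siRNA array they ranged from 6391 to 6794, with a median of 6499. As levels these were 3.12 ± 0.03 (SD over 8 spots) and 3.17 ± 0.03 (SD over 8 spots), and the difference was 0.05 ± 0.20 by the scanner error. The spot-by-spot differences ran from -0.01 to 0.08. The further probe had a signal of 89.2 and then 172.8 and differed by 0.15 ± 0.21. Probes at separate places in the Stat3 transcript thus both differed by less than the scanner error.

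The SOCS genes split. Socs1, whose product binds JAK kinases directly and blocks them, had a signal of 143 with control siRNA and 53.3 with G0s2 siRNA. The level went from -1.55 to -3.77, a difference of -2.22 ± 0.23, or 4.67-fold lower. That difference lay at percentile 0.45 of all genes measured. It rests on 1 spot per array, from a probe at chr16:10783951-10784010 of mm9 on the minus strand. The raw spot mean was 223 over a local background of 60 on the control array and 134 over 67 on the G0s2 siRNA array. In the tenth of genes by mean level that holds Socs1, 7.65% were at least 2-fold lower. Under normexp background correction Socs1 differed by -1.64.

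Socs2, whose product restrains growth hormone signalling, was lower at all 3 of its probes. Its main probe was printed 10 times on each array. The 10 spots ranged from 187 to 212 in signal on the control array, with a median of 198, and from 86.3 to 106 on the G0s2 siRNA array, with a median of 95.4. The spots of one array did not overlap those of the other, and neither did the unscaled Stat3 spots. The share of all replicated probes without overlap was not counted, so non-overlap is not read as particular to Socs2. Over replicated probes the median SD between spots was 0.05 in log2 on each array. The unscaled 75th percentiles of the arrays lay 0.80 apart in log2. Levels of the Socs2 spots were -1.07 ± 0.05 (SD over 10 spots) and -2.92 ± 0.10 (SD over 10 spots). This is a difference of -1.85 ± 0.21, or 3.60-fold lower. Spot-by-spot differences ran from -2.02 to -1.71. Spots share 1 RNA sample per array, so they show the error of printing and scanning and not that of the cells. The probe at position 818 differed by -1.77 ± 0.22 and the probe at position 1099 by -1.35 ± 0.21. The range over the 3 probes, 0.50, compares with a median range of 0.32 and an upper quartile of 0.62 over 3379 genes with several probes. Under normexp the main probe differed by -1.42.

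**Figure D2:**
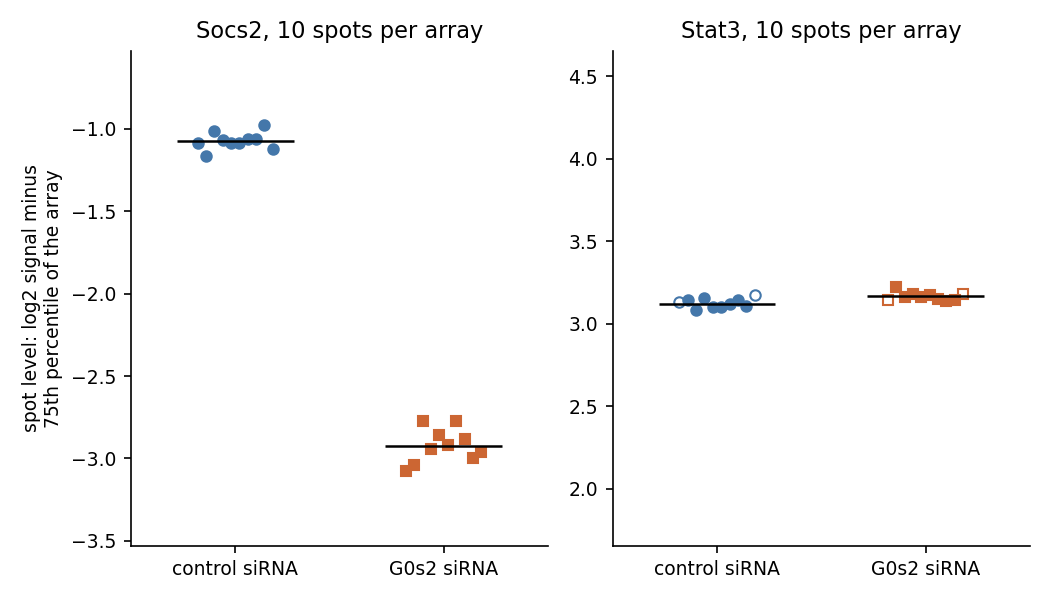
Level of every spot of the Socs2 probe (left panel) and the Stat3 probe (right panel) that were printed 10 times on each array, as log2 signal minus the 75th percentile of the array. Filled marks were used, open marks were outlier spots left out, lines are means, and both panels span 3 log2 units. The means of the Socs2 spots lie at -1.07 and -2.92, and those of the Stat3 spots at 3.12 and 3.17.

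The sequence of a further Socs2 probe is shown because it reads Socs2 at another place in the transcript than the probe printed 10 times. This probe, A_55_P1992838, covers chr10:94875468-94875527 (mm9, minus strand), at position 818 of NM_007706. It is 60 bases with 45.0% G and C and has 1 forward reading frame free of stop codons.
Socs2 probe at position 818: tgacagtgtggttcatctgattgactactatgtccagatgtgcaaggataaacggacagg

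Socs3, a feedback gene of STAT3, and Cish, which like Socs2 is a feedback gene of growth hormone signalling, were not lower. Socs3 had a signal of 154.5 with control siRNA and 382 with G0s2 siRNA. The level went from -1.44 to -0.93, a difference of 0.51 ± 0.21, or 1.42-fold higher, over 2 scanner errors but within 2-fold. The difference was at percentile 85.2 of all genes measured. Under normexp it was 0.32. Cish had a signal of 198 and then 383, a level of -1.08 and then -0.92 and a difference of 0.15 ± 0.21, within the scanner error. Each rests on 1 spot per array. Socs1, Socs2, Socs3 and Cish had control array signals from 134 to 199 over all their probes. On the G0s2 siRNA array Socs1 and Socs2 had signals from 53.3 to 105, and Socs3 and Cish 382 and 383.

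**Figure D3:**
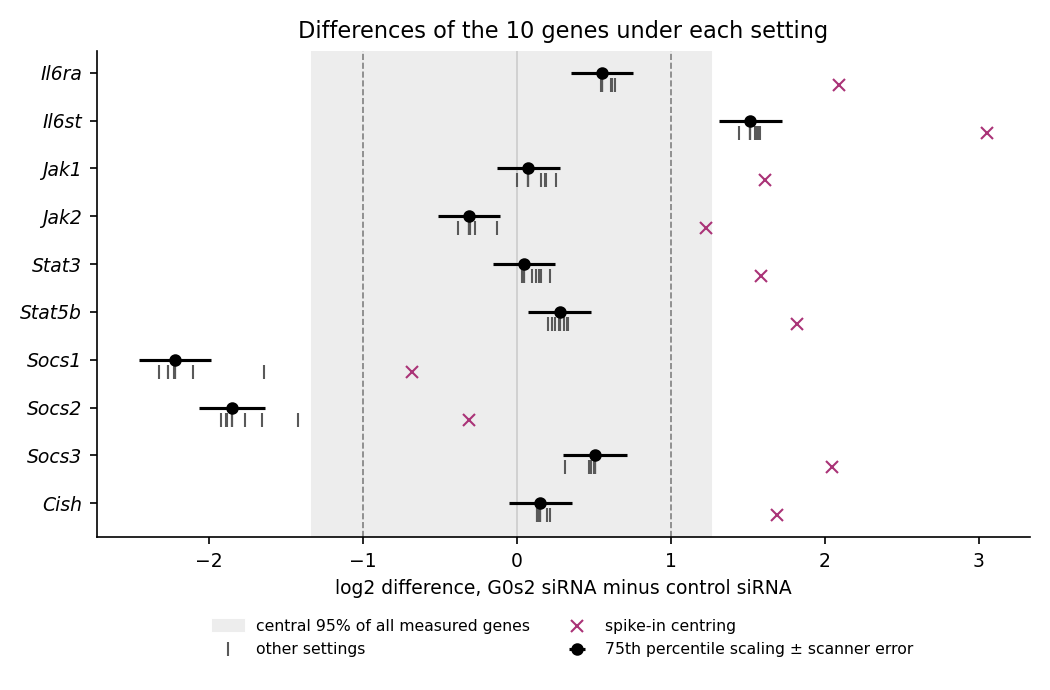
Log2 difference, G0s2 siRNA minus control siRNA, for the 10 genes under 75th percentile scaling (points, with bars for the scanner error), under spike-in centring (crosses) and under 9 other settings (ticks). The grey band holds the central 95% of all genes, from -1.33 to 1.26, and dashed lines mark 2-fold. Il6st lies right of the band and Socs1 and Socs2 left of it under each of the 9 other settings. Averaging over probes and the filters on dim probes could not move Il6st or Socs1. Spike-in centring moves every gene to the right.

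Promoter sequence from RefSeq on GRCm38.p6 was held for 9 of the 10 genes, with Socs2 the exception, and the 250 bases before the transcript start were searched on both strands. The letters searched were TTCNNNGAA, a form of the site that STAT factors bind, the same ends with 4 bases between them, a further form of that site, and GAAA repeated after 2 bases, a form of the site that interferon regulatory factors bind. These letters were chosen with the results known. TTCNNNGAA occurred in 1 of the 9 genes, Socs3, in 8.13% of 27025 genes and in 7.02% of their 32851 promoters of the same length. The form with 4 bases between occurred in 0 of the 9, in 6.76% of all genes and in 5.85% of all promoters. The GAAA repeat occurred in 1 of the 9, Socs1, with 2 matches that share a GAAA, in 3.46% of all genes and in 2.98% of all promoters. The promoters of Socs1, which was lower, Socs3, which was not, and Il6st, which was higher, are shown 5′ to 3′ with matches in capitals, and Il6st had none. Socs1 lies at chr16:10785537-10785786 on the minus strand, Socs3 at chr11:117969367-117969616 on the minus strand and Il6st at chr13:112463820-112464069 on the plus strand, all on GRCm38.p6.
Socs1 promoter: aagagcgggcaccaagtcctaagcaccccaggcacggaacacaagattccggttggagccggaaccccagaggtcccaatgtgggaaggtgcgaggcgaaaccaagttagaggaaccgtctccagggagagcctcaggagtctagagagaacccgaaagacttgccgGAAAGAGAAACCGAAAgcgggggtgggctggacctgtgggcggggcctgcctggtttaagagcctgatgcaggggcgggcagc
Socs3 promoter: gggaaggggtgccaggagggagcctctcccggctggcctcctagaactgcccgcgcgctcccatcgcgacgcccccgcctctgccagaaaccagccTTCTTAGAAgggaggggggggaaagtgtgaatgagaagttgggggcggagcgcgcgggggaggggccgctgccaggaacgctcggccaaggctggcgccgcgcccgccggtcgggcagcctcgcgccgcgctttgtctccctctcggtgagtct
Il6st promoter: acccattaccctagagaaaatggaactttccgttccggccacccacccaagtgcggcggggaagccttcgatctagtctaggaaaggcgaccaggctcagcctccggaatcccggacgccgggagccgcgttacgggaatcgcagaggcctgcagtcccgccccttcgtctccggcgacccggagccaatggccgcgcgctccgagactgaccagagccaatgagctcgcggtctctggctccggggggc

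The Socs1 matches, GAAAGAGAAA and GAAACCGAAA, end 74 and 68 bases before the start, and the Socs3 match, TTCTTAGAA, ends 146 bases before it. A match of letters is a description and not a bound site.

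Of 76 further genes of the pathway in 6 lists, 68 were measured. By the 2-fold rule 4 of these were higher and 3 lower, which is 5.88% and 4.41% of them. Differences in these lists are relative to the 75th percentile of the array, and under spike-in centring 56 of the genes were higher, 0 were lower and the median of every list was positive. Among the ligands of the family, 6 of 8 genes were measured, with 0 higher and 1 lower by the 2-fold rule. That gene was Ctf1, which encodes cardiotrophin-1, at -1.35 ± 0.21. Cntf differed by 0.92, with 0.46 at its other probe, Clcf1 by 0.58 and Il27 by 0.36. Il6 itself and Osm, which encodes oncostatin M, were not well above background on either array. The list's median of 0.32 was -0.10 under normexp.

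Among other receptors, 8 of 10 were measured and none was past 2-fold in either direction, with a median of -0.01. The genes whose products pair with gp130 differed less than Il6st did, with Lifr, for the leukaemia inhibitory factor receptor, at 0.16 ± 0.20, Osmr at 0.14 ± 0.21 and Il11ra1 at 0.23 ± 0.20. Other Lifr probes gave 0.79 and 0.51. The growth hormone receptor gene Ghr differed by -0.21 ± 0.20, the leptin receptor gene Lepr by -0.72 ± 0.20 and Csf2rb, for a shared cytokine receptor chain, by -0.21 ± 0.21, with -0.02 at its other probe.

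The other JAK and STAT genes had a median of -0.43 over 6 measured of 7, with 0 higher and 1 lower by the rule. Stat2, which encodes a transmitter of interferon signals, was that gene, at -1.10 ± 0.20. The third kinase gene of gp130, Tyk2, differed by 0.69 ± 0.20. Stat5a, the close relative of Stat5b, differed by 0.11 ± 0.21, Stat6 by -0.42 ± 0.20 and Jak3, the lymphoid kinase, by -0.44 ± 0.23. Other Stat6 probes gave -1.46 ± 0.23, past the 2-fold rule, and -0.35 ± 0.21.

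Of 14 other SOCS genes and negative regulators, all measured, 1 was higher and 0 were lower by the rule, and the median was 0.02. Socs6 was 2.25-fold higher, at 1.17 ± 0.22. Socs4 differed by -0.85 ± 0.21, Socs5 by -0.47 ± 0.22 and Socs7 by 0.31 ± 0.20, so members of the SOCS family lay on both sides of 0. The phosphatase gene Ptpn6, whose product removes phosphate from JAK kinases, differed by -0.72 ± 0.20, Ptpn11, whose product binds gp130, by 0.55 ± 0.20 and the ubiquitin ligase gene Cblb by -0.57 ± 0.21, with -0.10 at its other probe.

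The target genes of STAT3 lay on both sides of 0. Of 22 measured, 2 were higher and 1 was lower by the rule, 13 were positive and 8 negative, and the median was 0.11. Lbp, which encodes the lipopolysaccharide binding protein, differed by 1.60 ± 0.20 and the fibrinogen gene Fga by 1.30 ± 0.20, with 1.31 at its other probe. The other fibrinogen genes of the list, brighter than Fga on both arrays, differed by 0.52 ± 0.20 (Fgb) and -0.05 ± 0.20 (Fgg). Hamp, which encodes the iron hormone hepcidin, lay at the edge of the rule, with a level of 0.04 and then -0.96, and the growth response gene Junb just inside it, at 0.99 ± 0.31. The serum amyloid genes Saa1 and Saa2 differed by -0.65 ± 0.20 and -0.67 ± 0.20, and as near-identical copies their separate values are uncertain. Il1rn was dim on the control array and gave no fold; it entered the median at 0, as did Epor and Elovl3 in their lists.

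Growth hormone and STAT5b targets had 1 gene higher and 0 lower by the rule among 12 measured of 15, and the median was -0.10. The list was not split by the direction in which the pathway moves each gene. Its counts and median are thus no measure of STAT5b activity. The growth factor gene Igf1, the main endocrine product of this pathway, differed by -0.15 ± 0.20. Its other probes above background on both arrays gave 0.44 ± 0.22, -0.43 ± 0.20 and -0.10 ± 0.20, so they did not share a direction. The steroid hydroxylase gene Cyp2a4 differed by -0.59 ± 0.20, with -0.75 at its other probe, and Cyp7b1, of bile acid synthesis, by -0.41 ± 0.20. Cyp2b9, a cytochrome gene with a female bias in mouse liver, differed by 2.06 ± 0.21, and it belongs to a family of near-identical copies, as does Cyp2a4, so their values are uncertain. The growth factor receptor gene Egfr differed by -0.92 ± 0.20, while its other probes gave -0.29 and -0.49. Socs2, with a difference of -1.85, lay further from 0 than any of these targets that was lower, but less far than Cyp2b9, which was higher.

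**Figure D4:**
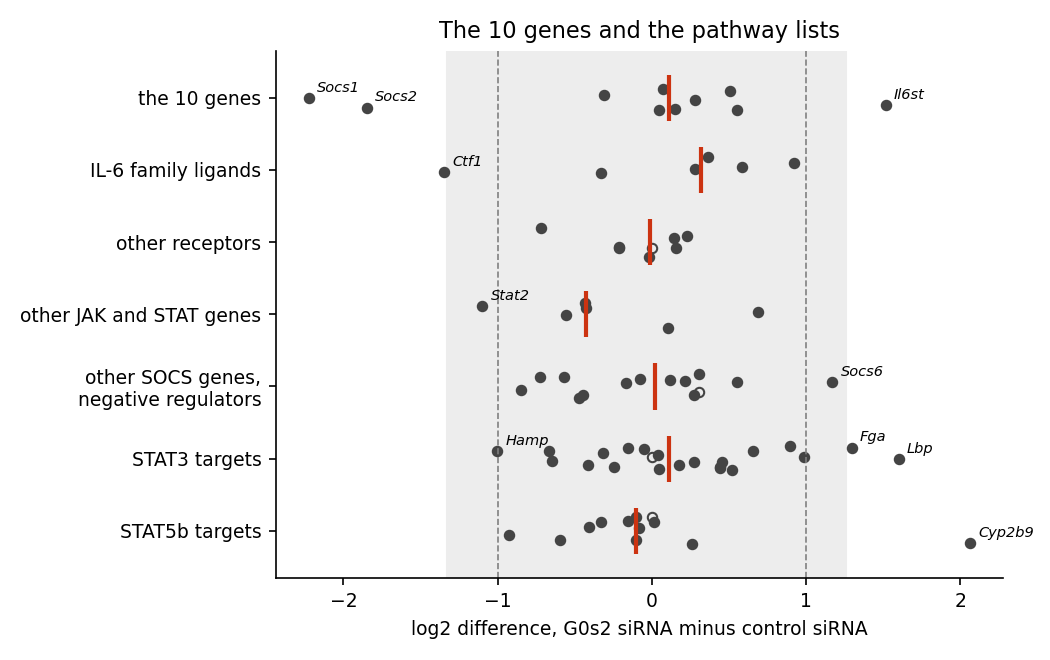
Log2 difference of the 10 genes and of the 6 pathway lists, with 1 point per gene, open points for genes dim on 1 array (bounds, at 0 where no fold could be given), red lines for medians, a grey band for the central 95% of all genes and dashed lines at 2-fold. List medians lie between -0.43 and 0.32, all of them above 0 under spike-in centring, and names mark the genes past 2-fold.

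Markers of other liver cells were present on both arrays. Macrophage markers had 9 of 9 genes measured, with Cd14 2.14-fold higher and Mpeg1 lower, at -1.18, 6 positive and 3 negative differences and a median of 0.35. Their summed level, in which the brightest probes weigh most, was 3.85 and then 3.75 on the log2 scale. Endothelial markers had 8 of 9 measured (Tek was not), with 1 higher and 0 lower by the rule. They had 5 positive and 2 negative differences and a median of 0.59. Vwf, dim on the control array, gave no fold and entered that median at 0. The summed level of the endothelial markers was 3.30 and then 2.92, with Kdr, the brightest of them, at -0.51, and 1.27 at its other probe. Cholangiocyte markers had 7 of 8 measured (Epcam was not), 1 higher and 2 lower, a median of -0.87 and a sum of 2.96 and then 2.15. The higher gene, Prom1, was dim on the control array, so its value is a bound. Stellate cell markers had 4 of 8 measured, with 0 past the rule, a median of 0.40 and a sum of -1.43 and then -1.02, while Des, Pdgfrb, Lrat and Reln were not well above background. Of the lymphocyte and neutrophil markers 3 of 8 were measured, with 0 higher and 1 lower, a median of -0.62 and a sum of 1.51 and then 0.88. That median is the value of Cd79a, a bound because Cd79a was dim on the G0s2 siRNA array. Ptprc, S100a8 and S100a9 were not well above background on either array. Hepatocyte markers had a median of 0.37 and summed to 9.95 and then 10.16. The part of these cells in the values of Il6st, Socs1 and Socs2 was not tested.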

How the data were processed

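RNA from mouse primary hepatocytes was measured on 2 arrays of 1 colour (Cy3), 1 per siRNA group, both on the same slide with the same scan start, and group cannot be told apart from where an array lay on the slide. Per the file headers, the deposited intensity values were read with Agilent Feature Extraction 10.7.1.1 on a design placed on mm9, already corrected for background by that program and on a linear scale. The authors' series table entered as an alternative only; how it was normalized is not stated.

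Control and outlier spots were left out (231 and 161 outlier spots), spots of a probe were averaged on the log2 scale, and the 75th percentile over probes was subtracted. The 10 genes were taken by the files' gene names. Other probes were named through a RefSeq table of GRCm38.p6, 26609 by accession, 3781 by symbol and 714 by synonym, with 8325 unnamed. Each gene took the value of its brightest probe among those well above background on either array. Of 15421 genes, 14123 were above background on both arrays. A value dim on 1 array became a bound. The rule was a log2 difference of at least 1. With 1 array per group no test was possible. Named genes were all probes of the 10 genes, and from each list up to 4 genes with the largest difference measured on both arrays, plus those needed to describe a member. Igf1, Saa1, Saa2, Fgb, Fgg and the markers named by value lie outside this rule and were chosen after their values were seen. Some genes and sequences that the rule covers are not reported here. Members and lists were chosen with earlier results of these data known. Alternatives were normexp, 2 other centrings, quantile and loess normalization, the authors' table, other gene values, filters and fold rules, and removal of a trend with probe position. The scripts were tested on simulated data. Calculations used Python 3.11.15, numpy 2.4.6, pandas 2.3.3, scipy 1.17.1, matplotlib 3.10.9, R 4.3.3 and limma 3.58.1.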

Additional observations from a re-analysis of the deposited data

How the results depend on the processing

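No paired analysis was possible because each group has 1 array. Il6st, Socs1 and Socs2 kept their direction in all 10 alternatives, some of which could not change it. Il6st and Socs1 have 1 probe each, bright on both arrays. Averaging over probes and the filters on dim probes therefore return their main values. Under spike-in centring Socs2, at -0.31 ± 0.21, was within 2 scanner errors. Relative to the median of all genes under each alternative, Il6st lay between 1.42 and 1.67, Socs1 between -2.32 and -1.55 and Socs2 between -1.92 and -1.33. Without a filter on dim probes the median of all genes was -0.15.

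Spike-in centring, with 8 spike-in probes whose unscaled log2 differences ran from -0.98 to -0.08, gave 2.09 for Il6ra, 3.06 for Il6st, 1.61 for Jak1, 1.23 for Jak2, 1.59 for Stat3, 1.82 for Stat5b, -0.68 for Socs1, -0.31 for Socs2, 2.05 for Socs3 and 1.69 for Cish. The 10 genes then had 8 at least 2-fold higher and 0 lower, the pathway lists 56 and 0 (from 4 and 3) and all genes 12909 and 39 (from 741 and 841, with 46.8% of calls higher against 99.7%). Normexp, with an offset of 50 added to each corrected signal, gave -1.64 for Socs1 and -1.42 for Socs2. By that setting 378 of all genes were higher and 518 lower. A 1.5-fold rule gave 1921 and 2244 of all genes. A 3-fold rule gave 176 and 236, with 0 of the 10 genes higher and 2 lower. With no filter on dim probes, 1521 and 1458 of all genes and 6 lower list genes passed. With the probe position trend removed, chosen after the data were seen, 7 list genes were higher. Counts under the other fold rules change with the threshold itself. The cause of the other shifts, that under spike-in centring included, was not tested.

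The number of arrays limits the precision. On the G0s2 siRNA array the signal was 53.3 for Socs1 and 68.5 to 105 for Socs2, where the lowest signal well above background was 18.1.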
